A study of Mus musculus with 12 samples.

Results

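The numbered Zfp genes are the mouse genes whose symbol is Zfp followed by a number, and they were taken here as every peak of 5-methylcytosine (5mC) or 5-hydroxymethylcytosine (5hmC) whose nearest gene carried such a symbol. This gave 693 of 55085 5mC peaks, assigned to 225 of 14361 genes, and 577 of 47478 5hmC peaks, assigned to 189 of 12848 genes. Together these were 1270 peaks of 269 genes, of 16293 genes with a peak of either mark. Of the 269 genes, 145 had peaks of both marks, 80 had only 5mC peaks, and 44 had only 5hmC peaks. RefSeq for the mouse build GRCm38.p6 lists 416 numbered Zfp genes. The symbols in the tables are partly older ones: 258 of the 269 matched RefSeq directly and 11 through a synonym, and 7 of the genes now have a name outside the numbered series, such as Zfp238, which is Zbtb18.

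Zinc finger proteins of this series mostly carry tandem fingers in which cysteine and histidine residues hold a zinc ion, and each finger reads a short stretch of DNA. Many of them also hold a KRAB box, a domain that recruits the corepressor Trim28 and with it histone and DNA methylation, and that silences transposable elements and imprinted genes. The genes for KRAB zinc fingers arose by repeated duplication and lie in tandem arrays, where neighbouring copies resemble each other. Others stand alone in the genome and act in development, and a few, such as the Zfp36 family, bind RNA and not DNA. 5mC is the methyl mark of cytosine, and 5hmC is its oxidised form, made by Tet enzymes and abundant in neurons.

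The samples came from the cortex of mouse embryos at E14.5, double heterozygous for the Btg2-RFP and Tubb3-GFP reporters. Proliferating progenitors (PP, negative for RFP and GFP), differentiating progenitors (DP, positive for RFP and negative for GFP), and neurons (positive for GFP) were sorted, and in both marks their DNA was barcoded and mixed before the pull-down. The series lists 12 samples, 6 pull-downs (IP) and 6 inputs, a pair of them per mark and population, and no treatment or mutant enters the comparisons. The sort rests on the promoters of Btg2 and Tubb3, so each population may hold other cells with the same reporter state.

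Each peak has a single level per mark and cell type, the log2 of the mean normalised read level over replicates. The spread between replicates and the depth behind a level are therefore unknown, and no test between cell types was possible. All comparisons below are differences between 2 mean levels, given as the level of the later minus that of the earlier cell type. A peak was counted as lower or higher when this difference was at least 1.5-fold, and each count stands beside the share of all peaks of the mark that passed the same limit. Peaks were assigned to the gene with the nearest transcription start site (TSS), which does not show that a peak acts on that gene. Coordinates are those of the mm10 tables, and exons, introns, and UTRs were not analysed here.

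An expression score per gene, taken by the authors from their earlier RNA-seq of the same cell types, accompanied each peak. All 5 markers of PP were highest in PP, all 3 of DP were highest in DP, and the 4 neuronal markers with a value were highest in neurons. Among them, Btg2 for DP and Tubb3 for neurons are the genes whose reporters defined the sort, so their place is no independent check. The 3 interneuron markers with a value summed to a score of 898 in PP and 9244 in neurons. Endothelial markers summed to 386, 326, and 91.1 in PP, DP, and neurons, microglial ones to 309, 189, and 74.9, and mesenchymal ones to 585, 140, and 57.8. These sums were all highest in PP, and no marker was at 0. Their part in the values of the Zfp genes was not tested, and the cells of the pull-downs themselves could not be checked with them.

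The promoters of the Zfp genes were rich in CG dinucleotides. In windows from 250 bases before to 50 bases after the TSS (RefSeq, GRCm38.p6), which were at hand for 271 starts of 217 member genes, the median number of CG dinucleotides was 16, against 7 over 32851 promoters of the genome. At least 10 of them were present in 71.6% of Zfp windows and in 43.5% of all windows. The 32851 windows belong to 27025 genes, more than the 16293 with a peak, whereas each Zfp window belongs to a gene with a peak. The sets were not matched. The E-box CAGATG, searched on both strands, stood in 15.9% of Zfp windows and 17.2% of all windows. Of the 1270 peaks, 5 overlapped such a window, and the fifth, of 5mC just inside Zfp280c, is not shown. The 4 windows below, each overlapped by a 5hmC peak, are shown because they are the places where a peak met a Zfp promoter upstream of or across the start. Each is printed 5′ to 3′ on the strand of the gene as 280 bases, from 250 before to 30 after the start, with the bases inside the peak in capitals. They hold 12, 10, 12, and 11 CG dinucleotides in the order printed, and CAGATG stood in none of the windows on either strand.
Zfp160 (chr17:21008691-21008970, plus strand): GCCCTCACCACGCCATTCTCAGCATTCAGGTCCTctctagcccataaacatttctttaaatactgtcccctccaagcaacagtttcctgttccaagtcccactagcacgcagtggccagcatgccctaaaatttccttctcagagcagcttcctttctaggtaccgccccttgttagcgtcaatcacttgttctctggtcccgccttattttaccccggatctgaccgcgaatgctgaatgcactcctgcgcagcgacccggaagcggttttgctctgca
Zfp677 (chr17:21383498-21383777, plus strand): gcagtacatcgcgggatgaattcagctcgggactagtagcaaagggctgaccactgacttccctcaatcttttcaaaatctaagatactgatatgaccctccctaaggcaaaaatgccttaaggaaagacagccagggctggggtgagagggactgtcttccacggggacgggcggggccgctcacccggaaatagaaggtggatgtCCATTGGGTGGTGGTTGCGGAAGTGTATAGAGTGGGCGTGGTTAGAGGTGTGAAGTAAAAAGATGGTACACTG
Zfp385c (chr11:100692437-100692716, minus strand): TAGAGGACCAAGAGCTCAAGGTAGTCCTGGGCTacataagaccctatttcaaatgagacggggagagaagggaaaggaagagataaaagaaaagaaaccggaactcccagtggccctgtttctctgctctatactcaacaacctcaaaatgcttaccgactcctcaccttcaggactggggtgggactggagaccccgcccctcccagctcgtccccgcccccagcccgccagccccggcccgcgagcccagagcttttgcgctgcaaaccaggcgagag
Zfp385b, start inside the longest form (chr2:77703243-77703522, minus strand): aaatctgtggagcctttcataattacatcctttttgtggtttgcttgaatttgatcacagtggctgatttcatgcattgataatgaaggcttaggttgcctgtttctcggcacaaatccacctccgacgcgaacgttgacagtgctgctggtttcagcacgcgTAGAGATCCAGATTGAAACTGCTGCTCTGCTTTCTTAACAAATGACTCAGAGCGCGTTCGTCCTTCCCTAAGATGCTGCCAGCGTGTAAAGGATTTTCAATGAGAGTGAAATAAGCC

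The 5hmC peak upstream of the Zfp160 start (distance -325 bp) overlapped only the first 34 bases shown. Its level was 4.08, 3.95, and 2.94 in PP, DP, and neurons, the only one of these 4 that was past 1.5-fold between PP and neurons. At Zfp677 the levels were 4.80, 5.22, and 4.83, at Zfp385c 4.31, 4.40, and 4.14, and at the inner start of Zfp385b 4.55, 4.20, and 4.15. Most CG-rich Zfp promoters thus had no peak of either mark in these tables, from which peaks overlapping annotated repeats had been left out. The same share over all promoters was not computed, so this cannot be read as particular to Zfp genes.

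Peaks of Zfp genes lay inside the gene somewhat more often than peaks at large. For 5mC, 305 of 693 peaks (44.0%, 95% Clopper-Pearson interval 40.3 to 47.8) were inside the gene, against 40.2% of all peaks, and for 5hmC 245 of 577 (42.5%, interval 38.4 to 46.6), against 36.2%. The intervals cover counting error only and treat the peaks of a gene as independent. Within 2 kb of the TSS lay 6.20% of 5mC Zfp peaks (all peaks 6.14%) and 9.36% of 5hmC Zfp peaks (interval 7.11 to 12, all peaks 6.63%). The number of peaks per gene was lower than over all genes, with 3.08 against 3.84 for 5mC and 3.05 against 3.70 for 5hmC. Chromosome 7 held 150 of the 5mC peaks (62 genes) and 136 of the 5hmC peaks (52 genes), that is 21.6% and 23.6% of the Zfp peaks. Of all peaks, it held 3292 of 55085 for 5mC and 3064 of 47478 for 5hmC. The share of all numbered Zfp genes that lie on chromosome 7 is not set beside these counts.

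Across the lineage, lower 5mC outnumbered higher 5mC at Zfp peaks as at peaks at large, and most Zfp peaks stayed within 1.5-fold. From PP to DP, 33 Zfp peaks had lower 5mC (4.76%, all peaks 5.53%) and 27 had higher 5mC (3.90%, all peaks 4.51%). In the transition from DP to neurons, lower 5mC was found at 85 Zfp peaks (12.3%, all peaks 15.5%) and higher 5mC at 19 (2.74%, all peaks 2.26%). Between PP and neurons, 85 were lower (12.3%, all peaks 16.3%) and 13 were higher (1.88%, all peaks 2.12%). The 5mC difference of the median peak was -0.18 from DP to neurons and -0.17 from PP to neurons over all peaks, a shift of the whole mark. Relative to that shift, 54 Zfp peaks were lower and 38 higher from DP to neurons (7.79% and 5.48%, all peaks 9.36% and 5.12%), and 49 were lower and 25 higher from PP to neurons (7.07% and 3.61%, all peaks 10.2% and 5.00%).

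For 5hmC, 57 Zfp peaks were higher in DP than in PP (9.88%, all peaks 11.1%) and 23 were lower (3.99%, all peaks 4.74%). From DP to neurons 83 were higher (14.4%, all peaks 15.8%) and 51 lower (8.84%, all peaks 7.8%). From PP to neurons 89 were higher (15.4%, all peaks 20.2%) and 64 lower (11.1%, all peaks 10.8%). Centring on the median of all peaks turned the last pair of counts into 100 higher and 44 lower (17.3% and 7.63%, all peaks 22.1% and 7.71%). Without centring, the 175 genes with up to 8 5hmC peaks had 44 of 378 peaks higher (11.6%) and 45 lower (11.9%). The excess of higher over lower 5hmC from PP to neurons thus rested on the 14 genes with over 8 peaks. The same split was not made over all genes. The median 5hmC difference from PP to neurons was -0.12 over the Zfp peaks and -0.08 over all peaks, and the median 5mC difference was -0.12 and -0.17. Most Zfp peaks were thus within 1.5-fold between any pair of cell types in both marks.

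The largest 5mC difference among peaks that reached a level of 4 in any cell type belonged to Zfp238, the gene of Zbtb18 (also called RP58), a repressor required for the differentiation and migration of cortical neurons. Its peak inside the gene, 3.69 kb from the TSS (chr1:177448216-177448483), had a 5mC level of 4.08, 3.15, and 0.52 in PP, DP, and neurons. The level in PP was thus 11.8-fold that in neurons, with DP between them. A peak within Zfp385b, 61.1 kb from the TSS (chr2:77758501-77758645), followed the same order with 4.43, 3.26, and 0.94, a difference of 11.2-fold. Zfp532, whose protein binds the chromatin reader Zmynd8, came next with 5.87, 5.26, and 3.04 in PP, DP, and neurons at a peak 27.2 kb inside the gene. At all 3 peaks, most of the difference lay between DP and neurons. The neuron levels at Zfp238 and Zfp385b were near the lowest 5mC level of any peak, 0.11. Their folds thus depend on a level near the floor.

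Higher 5mC in neurons was rarer and smaller. The largest such differences were at Zfp456, 2.06 kb upstream (3.81, 4.34, and 4.84 in PP, DP, and neurons), at Zfp622, 41.3 kb upstream (4.20, 4.66, and 5.13), and within Zfp692 (4.17, 4.70, and 5.08). None of the 3 exceeded a 2.04-fold difference. Some peaks had their extreme level in DP. Within Zfp609, whose protein works with the cohesin loader in the developing cortex, a peak 32.7 kb from the TSS had a 5mC level of 3.03, 4.26, and 2.73 in PP, DP, and neurons, and a peak within Zfp827 had 4.50, 3.30, and 4.21. At Zfp626, 2.05 kb upstream, the level was likewise lowest in DP, at 2.99, against 4.43 in PP and 3.65 in neurons. A peak within Zfp800 (3.81, 2.78, and 4.04) and a peak 361.7 kb downstream of the Zfp521 start (4.06, 3.04, and 4.33) also had their lowest 5mC in DP. The highest level was in DP at Zfp954, 59.7 kb downstream (3.52, 4.71, and 3.74), and at Zfp286, 8.90 kb upstream (3.75, 4.74, and 3.92).

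5hmC differences were larger upward than downward. A peak deep within Zfp407, 209 kb from its TSS, had a 5hmC level of 1.49, 4.30, and 5.99 in PP, DP, and neurons, 22.7-fold higher in neurons than in PP. Zfp64 had 1.14, 2.82, and 5.30 at a peak 28.9 kb inside the gene (chr2:168926656-168926811), a 17.9-fold difference. Zfp428 followed with 0.70, 2.44, and 4.73 at a peak 8.45 kb inside (chr7:24515365-24515556). In each of the 3 the level of DP stood between those of PP and neurons. Their PP levels were low, beside a lowest 5hmC level of -0.05 over all peaks, so these folds depend on a level near the floor. Other peaks had all or nearly all of the difference in a single transition. Downstream of Zfp622, which codes for a factor of ribosome maturation, 5hmC was 2.12 in PP and 5.12 in both DP and neurons. Within Zfp366 it was 1.31, 1.43, and 4.35 in PP, DP, and neurons, although the expression score of that gene was at most 6.6 in any cell type.

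Lower 5hmC in neurons was led by a peak 27.3 kb upstream of Zfp473, a gene for a factor of histone mRNA processing, with 4.43, 4.26, and 2.71 in PP, DP, and neurons, a 3.30-fold difference. Next came a peak 71.7 kb downstream of the Zfp238 start (4.09, 4.06, and 2.80) and a peak 34.1 kb upstream of Zfp507 (6.77, 6.60, and 5.50). All 3 had nearly the same level in PP and DP, whereas a peak 51.3 kb upstream of Zfp825 was highest in DP (3.77, 4.41, and 3.11) and a peak 11.4 kb upstream of Zfp36l2 was lowest in DP (4.60, 3.63, and 4.25). The highest levels of all were steady across the lineage. For 5mC they were found within Zfp161 (8.25, 8.39, and 8.32 in PP, DP, and neurons), Zfp27 (8.35, 8.35, and 8.09), and Zfp3 (8.14, 8.23, and 8.13), and for 5hmC at Zfp36l2 (7.56, 7.63, and 7.49), Zfp704 (7.45, 7.33, and 7.08), and Zfp703 (7.15, 7.22, and 7.04).

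**Figure D1:**
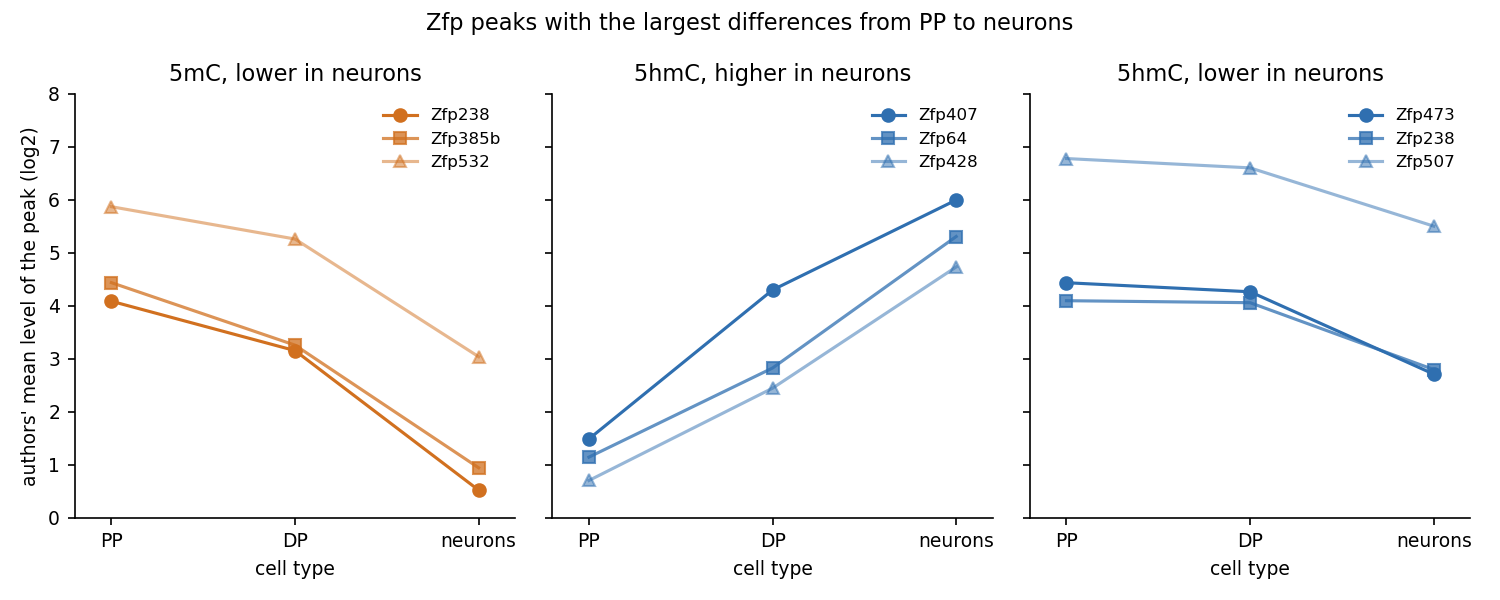
Mean level (log2) of each named peak in PP, DP, and neurons, for the 3 Zfp peaks with the largest differences between PP and neurons for lower 5mC, higher 5hmC, and lower 5hmC in neurons, among peaks whose highest level was at least 4. Lines join the 3 mean levels of a peak, there are no error bars because replicates were averaged by the authors, and the 5mC level of Zfp238 goes from 4.08 to 0.52 while the 5hmC level of Zfp407 goes from 1.49 to 5.99.

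Because many Zfp genes lie in tandem arrays, the members were split by their neighbours in RefSeq, a split chosen after the values had been seen. Numbered Zfp genes at most 100 kb apart were joined into runs, and a gene was called clustered in a run of 3 or more, paired in a run of 2, and solitary otherwise. There were 117 solitary, 28 paired, and 124 clustered member genes, the last spread over 30 of the 32 runs of 3 or more that RefSeq holds. Solitary genes carried most of the peaks, 452 of 693 for 5mC and 398 of 577 for 5hmC, and their peaks lay farther from the TSS, at a median of 26.2 kb for 5mC and 33.4 kb for 5hmC, against 8.86 and 7.78 kb for clustered genes. Within 2 kb of the TSS lay 6.03% of solitary, 13.2% of paired, and 17.7% of clustered 5hmC peaks, beside 6.63% of all peaks.

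The classes stood furthest apart in the share of peaks with higher 5hmC in neurons. From PP to neurons, 5hmC was higher at 77 of 398 solitary peaks (19.3%) and at 9 of 141 clustered peaks (6.38%), beside 20.2% of all peaks, and it was lower at 38 solitary (9.55%) and 20 clustered peaks (14.2%, interval 8.88 to 21.1), beside 10.8% of all peaks. Over clustered genes, lower 5hmC thus outnumbered higher 5hmC as deposited, but centring on the median of all peaks gave 10 lower and 12 higher (7.09% and 8.51%, all peaks 7.71% and 22.1%). 5mC was lower at 65 of 452 solitary peaks (14.4%) and at 16 of 189 clustered peaks (8.47%), beside 16.3% of all peaks, and higher at 10 (2.21%) and 2 (1.06%), beside 2.12%. Centred, the clustered counts were 7 lower and 9 higher (3.70% and 4.76%) and the solitary counts 41 lower and 15 higher (9.07% and 3.32%), beside 10.2% and 5.00% of all peaks. The 38 5hmC peaks of paired genes included 3 higher and 6 lower in neurons, and their 52 5mC peaks 4 lower and 1 higher.

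The 5hmC shares were also taken by position. Among peaks inside the gene, 5hmC was higher in neurons at 44 of 164 solitary peaks (26.8%) and at 4 of 64 clustered peaks (6.25%), beside 24.4% of all peaks inside genes. Outside the gene the shares were 14.1% of solitary peaks and 6.49% of clustered peaks, with overlapping intervals, beside 16.9% of all peaks upstream of genes and 19.8% downstream. With a single peak per gene, the one of highest mean level, 5hmC was higher at 9.89% of solitary and 2.53% of clustered genes. 5mC was lower at 6% and 5.83%. A low level in a cell type lowers the mean, so this choice tends to drop peaks that differ. The median number of 5mC peaks to choose from was 3 for solitary and 1 for clustered genes. The near-equal 5mC shares therefore cannot decide whether the classes differ. Shares with a single peak per gene were not computed over all genes, and the shares over all peaks are not their counterpart. No test of these differences was made, since the split was chosen with the values known, and the part that near-identical copies in a run have in their levels was not tested.

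**Figure D2:**
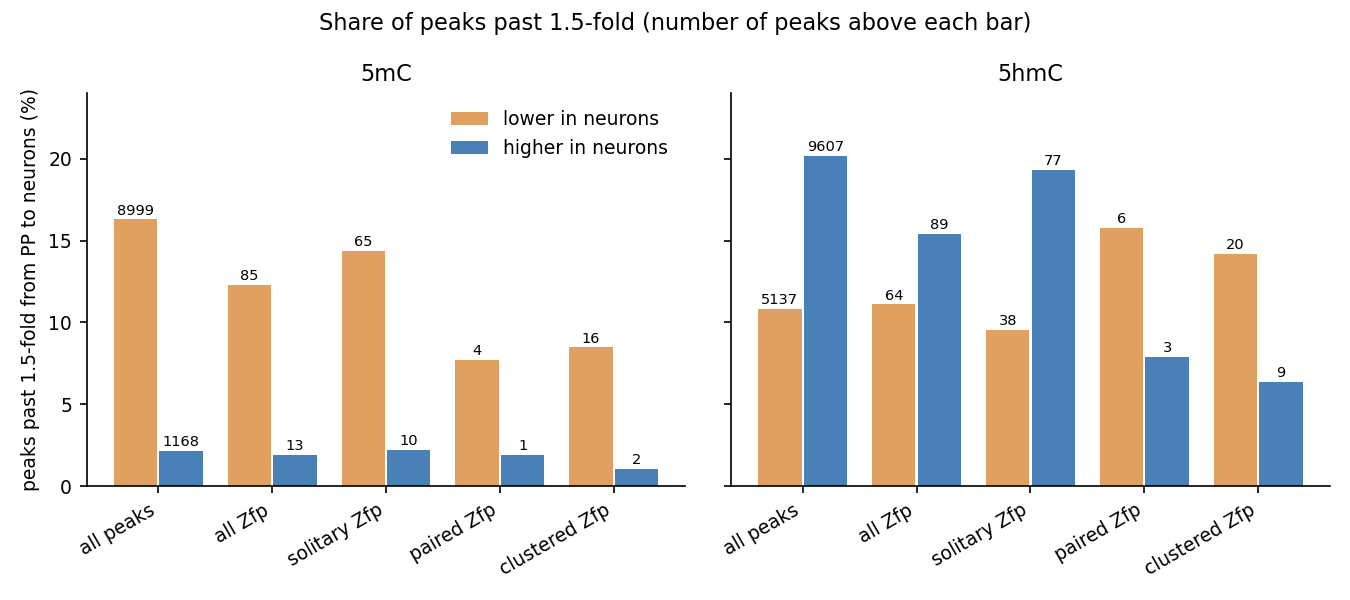
Percentage of peaks at least 1.5-fold lower or higher in neurons than in PP, for all peaks of the mark, all Zfp peaks, and the peaks of solitary, paired, and clustered Zfp genes, with the number of peaks above each bar. The 5hmC bars for higher levels stand at 19.3% for solitary and 6.38% for clustered genes, beside 20.2% for all peaks.

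The clustered genes with the largest differences were few. Zfp809, a KRAB zinc finger protein that silences retroviral DNA in embryonic cells, had a single peak, of 5hmC, 1.30 kb inside the gene (chr9:22226935-22227094), with 2.02, 3.78, and 5.66 in PP, DP, and neurons. Its expression score was 323, 310, and 202 in PP, DP, and neurons. Zfp316 had 5mC of 5.05, 4.52, and 2.83 at a peak 2.82 kb upstream, the largest 5mC difference of a clustered gene. Zfp467 had 5hmC of 4.05, 4.34, and 5.56 inside the gene, and Zfp868 had 4.70, 4.40, and 3.52 at a peak 8.10 kb upstream. These peaks differed in direction from each other, and most other clustered peaks stayed within 1.5-fold.

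Of the KRAB genes with a known role, Zfp568, which represses a placental transcript of Igf2, had 3 5mC peaks with differences from PP to neurons between -0.59, just past 1.5-fold, and -0.08 and 2 5hmC peaks between 0.03 and 0.29. The expression score of Zfp568 was 1806, 1669, and 712 in PP, DP, and neurons. Zfp445, which with Zfp57 keeps imprinted methylation in the embryo, had 2 5mC peaks, the one 8.65 kb upstream with 4.71, 5.38, and 5.25, lowest in PP, and the one 23.3 kb downstream with 4.03, 3.49, and 4.36, lowest in DP, and no 5hmC peak. No row of either table named Zfp57. The score of Zfp445 was 6355, 7392, and 8211 in the same order.

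A list of 28 Zfp genes with known roles was described in the same way. Of these, 23 had a peak, 17 of 5mC and 21 of 5hmC, whereas Zfp608, Zfp57, Zfp42, Zfp207, and Zfp36l1 were not named in either table. From PP to neurons, 20 of their 135 5mC peaks were lower and 2 were higher, and 40 of their 177 5hmC peaks were higher and 16 lower. These shares, 14.8% and 1.48% for 5mC and 22.6% and 9.04% for 5hmC, were close to the 16.3%, 2.12%, 20.2%, and 10.8% of all peaks, and the median differences were -0.16 for 5mC and 0.00 for 5hmC, against -0.17 and -0.08. The peaks were unevenly shared, and Zfp703 alone held 20 and 30 of them.

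Zfp238 stood out among the developmental genes by its expression score of 14804, 39194, and 77698 in PP, DP, and neurons, the highest mean score of the 269 genes. It had 8 5mC and 10 5hmC peaks, all inside or downstream of the gene. Besides the peak inside the gene, 5mC was lower past 1.5-fold in neurons 32.1 kb (4.11, 3.94, and 2.74) and 129.6 kb (5.94, 5.84, and 4.62) from the TSS, whereas the other 5 peaks differed by less. 5hmC was higher at 24.3 kb (3.64, 3.51, and 4.80) and 65.4 kb (2.03, 2.90, and 4.67) and lower at 15.9 kb (5.08, 4.76, and 4.24) and 71.7 kb. The 5hmC peak over the 5mC peak inside the gene was nearly level, at 5.87, 6.14, and 5.66 in PP, DP, and neurons.

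Zfp703 and Zfp503 encode the NET family of corepressors, of which Zfp503 (also called Nolz1) is known from striatal neurons. Zfp703 had more peaks than any other Zfp gene, 20 of 5mC and 30 of 5hmC, none of them inside the gene and all but 5 of the 5mC peaks upstream. 5mC was lower in neurons at 3 and higher at 1, and the largest differences lay 143 kb upstream (4.89, 4.12, and 2.89 in PP, DP, and neurons) and 128 kb upstream (4.95, 4.17, and 3.10). 5hmC was higher at 10 and lower at 1, with the largest difference 295 kb upstream (1.25, 2.87, and 4.74) and further ones at 82.9 kb (1.91, 2.98, and 4.75) and 85.2 kb (2.05, 3.96, and 4.26). The score of Zfp703 was 4408, 3508, and 8395 in PP, DP, and neurons. Zfp503 had only 3 5hmC peaks, with differences between -0.13 and 0.07 and a score of 94.6 in PP and 369 in neurons.

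**Figure D3:**
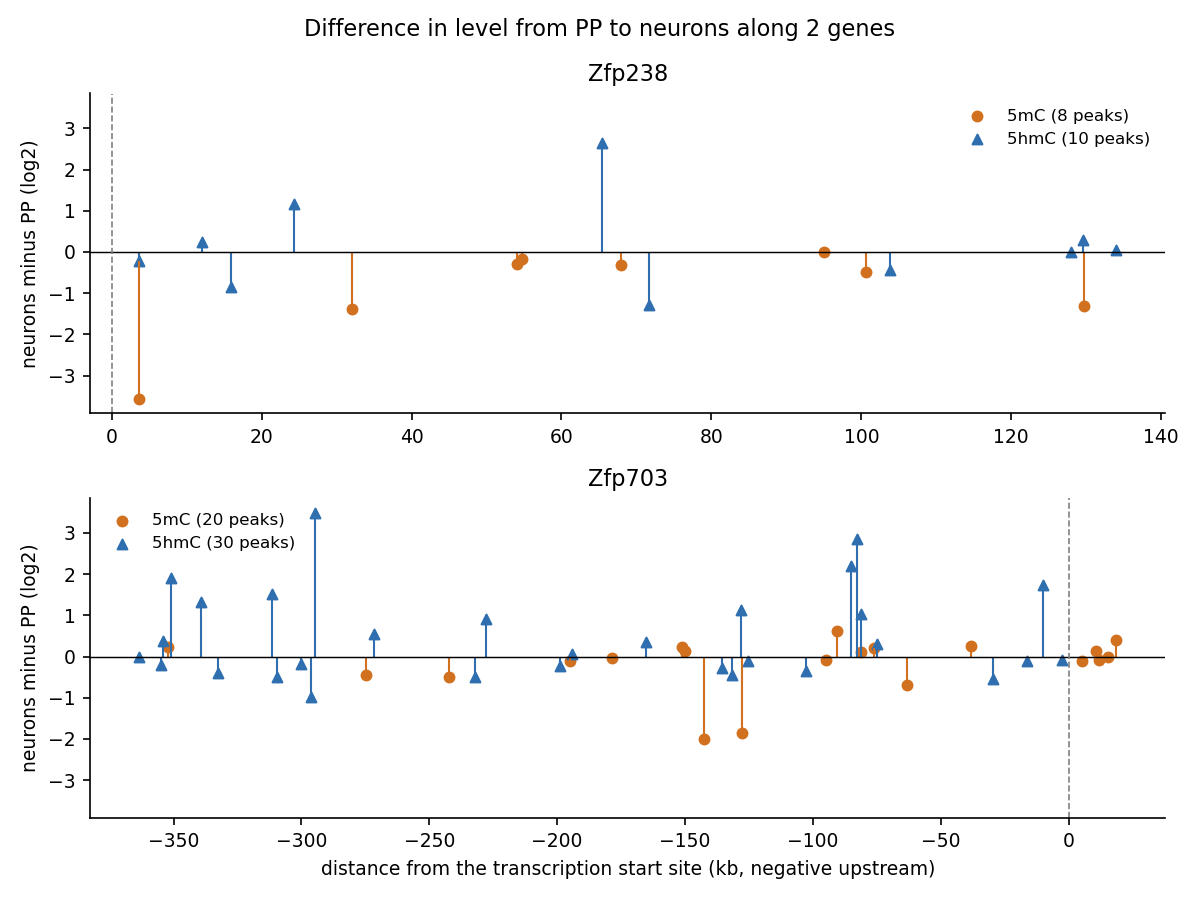
Difference in mean level between neurons and PP (log2, positive where neurons were higher) of each 5mC and 5hmC peak assigned to Zfp238 and Zfp703, by distance from the TSS in kb, with the TSS as a dashed line. At Zfp238 the 5mC peak at 3.69 kb has the largest difference, and at Zfp703 10 of 30 5hmC peaks were at least 1.5-fold higher in neurons, at scattered distances upstream.

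Zfp423 and Zfp521 are paralogs whose many-fingered proteins bind the early B-cell factors (EBF) and act in neural progenitors. At Zfp423, 1 of 15 5mC peaks was lower in neurons, 49.5 kb inside the gene (4.44, 4.17, and 3.54), and 6 of 16 5hmC peaks were higher and 1 lower. The largest 5hmC difference was 159 kb inside (4.51, 4.53, and 5.52 in PP, DP, and neurons), and 5 of the 6 higher peaks lay inside the gene. Its expression score was 3714, 5267, and 3313. Zfp521 had 15 5mC peaks, 2 lower and 1 higher, and 26 5hmC peaks, 4 higher and 4 lower. Its largest differences lay close together inside the gene. At a pair of overlapping peaks 128.5 kb from the TSS, 5mC was 5.00, 4.56, and 3.29 and 5hmC 1.91, 2.80, and 4.98, and 126 kb from the TSS 5hmC was 1.62, 3.0, and 4.81. The lower 5hmC peaks of Zfp521 included 3 that lay 157 to 204 kb upstream, of which the farthest had 4.45, 3.94, and 3.33.

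Zfp536, whose protein represses neuronal differentiation genes, had 5hmC higher in neurons than in PP at 3 of 6 peaks, all inside the gene. The largest difference was 24.1 kb from the TSS (3.34, 4.32, and 5.41). None of its 3 5mC peaks was past 1.5-fold between PP and neurons, but 1 was lower past 1.5-fold from DP to neurons (5.77, 6.26, and 5.62). The score of Zfp536 was lower in neurons, at 2511, than in PP, at 4677. Zfp462, a chromatin factor linked to neurodevelopmental disorder, had 3 of 7 5mC peaks lower in neurons (the largest 4.83, 4.63, and 3.47) and 2 of 7 5hmC peaks higher (the largest 3.45, 4.19, and 4.88), and a score of 27265, 33675, and 44295. At Zfp609, 2 of 5 5hmC peaks were higher in neurons, with 2.76, 2.98, and 4.37 at the larger. Zfp407 had 2 of 12 5mC peaks lower and 3 of 11 5hmC peaks higher, while its score stayed between 2054 and 2500. Zfp704 had 1 of 12 5mC peaks lower, and 2 of 13 5hmC peaks higher and 1 lower. Zfp507, also rich in peaks, had all its peaks upstream, with 2 of 12 5mC peaks lower and, of 15 5hmC peaks, 4 higher and 2 lower. Its largest 5hmC difference lay 120.5 kb upstream (2.15, 3.41, and 4.61). Zfp957 had 2 of 17 5mC peaks lower and, of 12 5hmC peaks, 4 higher and 1 lower.

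Zfp335, a regulator of neural progenitors, had 2 5mC peaks with differences of -0.58 and -0.06. Zfp148 and Zfp281, which bind GC-rich promoters, had 5 peaks at Zfp148 and 2 at Zfp281, of which a 5hmC peak within Zfp148 was lower in DP, at 3.42, than in PP, at 4.66, and stood at 4.01 in neurons. Zfp292 (3.91, 3.24, and 4.32 in PP, DP, and neurons) and Zfp711 (4.66, 3.71, and 4.69), both linked to intellectual disability, each had a single 5hmC peak with its lowest level in DP. For Zfp804a, a gene associated with schizophrenia risk, 3 5mC and 5 5hmC peaks were all upstream and within 1.5-fold between PP and neurons. Its paralog Zfp804b had 2 of 5 5hmC peaks lower in neurons, the larger with 4.65, 4.05, and 3.53. Zfp365, a centrosomal protein gene, had 2 of 16 5mC peaks lower and 2 of 13 5hmC peaks each higher and lower, the largest difference being 1.15 (3.92, 5.11, and 5.07).

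Among the CCCH genes, whose proteins bind AU-rich mRNA and promote its decay, Zfp36l2 had 11 5mC and 15 5hmC peaks, none inside the gene. 5mC was lower in neurons at 2, the larger 119 kb downstream (5.21, 4.91, and 4.42), and 5hmC was higher at 3, the largest 93.1 kb downstream (3.16, 3.95, and 4.61), and lower at 2. Zfp36 had 1 5mC peak inside the gene (5.21, 5.03, and 5.04) and 2 5hmC peaks, of which the upstream one was highest in DP (4.22, 4.80, and 4.33). The scores of the 2 genes went in opposite directions, from 2187 in PP to 235 in neurons for Zfp36l2 and from 323 to 543 for Zfp36.

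In 77 places a 5mC peak and a 5hmC peak of Zfp genes overlapped by at least 1 bp, in 55 genes, of 6735 such pairs in all. Lower 5mC and higher 5hmC from PP to neurons, of any size, was found at 43 of the 77 pairs (55.8%, Clopper-Pearson interval 44.1 to 67.2), against 56.7% of all pairs. Both marks were past 1.5-fold in these directions at 10 pairs (13.0%), against 22.4% of all pairs, and no Zfp pair had the opposite combination past 1.5-fold, which 14 of all pairs had. The 10 pairs belonged to Zfp316, Zfp385b, Zfp407, Zfp507, Zfp521, Zfp532, Zfp612, Zfp64, Zfp644, and Zfp957, of which Zfp316 is clustered and the others solitary. Across the 77 pairs the Spearman correlation of the differences of the marks was -0.42, and across all pairs -0.51, over pairs that share libraries and are not independent replicates.

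The pair within Zfp407 joined 5hmC of 1.49, 4.30, and 5.99 with 5mC of 3.91, 4.50, and 2.34 in PP, DP, and neurons, so that 5hmC was higher in DP while 5mC was not lower. At Zfp385b the pair 61.1 kb from the TSS had 5hmC of 5.28, 5.85, and 6.08 over the 5mC peak described above. At Zfp612, 14.8 kb upstream, 5mC was 5.21, 5.10, and 4.45 and 5hmC 4.41, 5.12, and 5.73. Zfp957 had 6 pairs, of which the one 150 kb downstream had 5mC of 4.44, 4.78, and 3.41 and 5hmC of 3.50, 3.10, and 5.38. Other pairs differed in a single mark. At Zfp428 5mC was 5.52, 5.94, and 5.41 under the 5hmC peak that differed 16.3-fold, and a second pair at Zfp385b had 5mC of 4.41, 4.62, and 4.59 under 5hmC of 1.88, 4.14, and 4.76. Zfp238 was the converse, with 5mC lower and 5hmC level. At Zfp189 both marks were lower in neurons, with 5mC of 3.98, 3.47, and 2.58 and 5hmC of 4.88, 4.59, and 3.98.

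**Figure D4:**
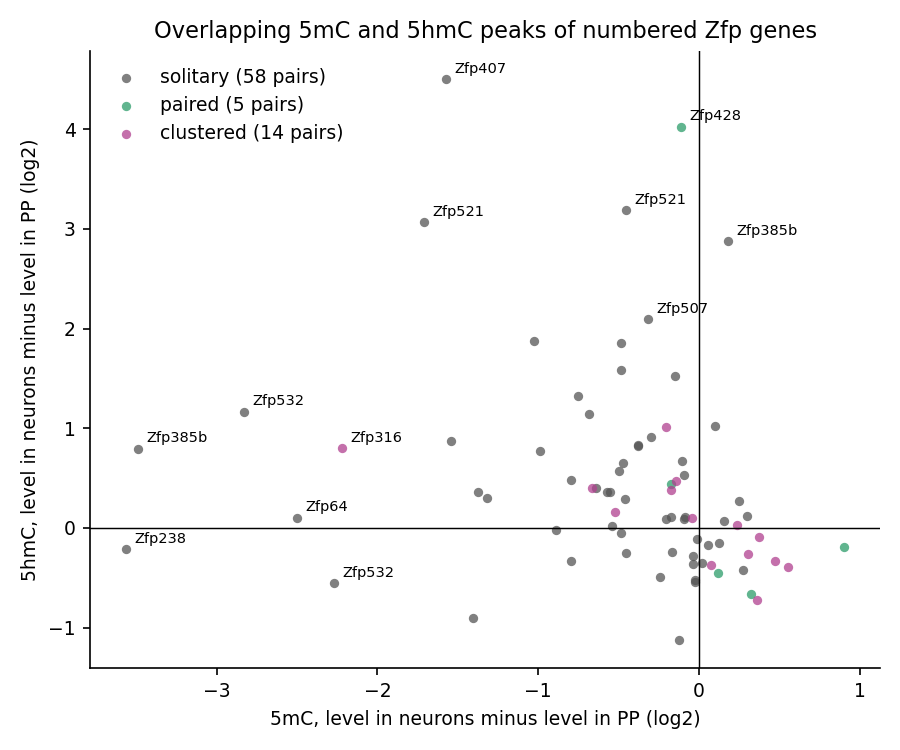
Difference between neurons and PP in 5hmC (vertical, log2) against that in 5mC (horizontal, log2) for the 77 overlapping pairs of Zfp peaks, coloured by whether the gene is solitary, paired, or clustered, with genes named where either difference reached 2. The upper left part of the plot, lower 5mC with higher 5hmC, holds 43 pairs, and the lower right part holds none with both differences past 1.5-fold.

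The median expression score of the Zfp genes was higher at each step of the lineage, which the median over all genes was not. The median score of the 269 genes was 1129, 1273, and 1507 in PP, DP, and neurons, against 455, 470, and 436 over all 16293 genes. The median difference of log2 (score plus 1) was 0.18 from PP to DP, 0.19 from DP to neurons, and 0.37 from PP to neurons, against -0.02, 0.01, and -0.01 over all genes. From PP to DP, 28 Zfp genes were at least 1.5-fold higher (10.4%, all genes 13.7%) and 6 lower (2.23%, all genes 17%). Between DP and neurons the counts were 59 higher (21.9%, all genes 26.2%) and 30 lower (11.2%, all genes 26.1%), and between PP and neurons 99 higher (36.8%, all genes 29.8%) and 27 lower (10%, all genes 31.2%). Lower scores were thus rarer among Zfp genes than among all genes in each transition. The comparison was not matched for score: the lower quartile of the mean score was 386 for Zfp genes and 31.8 for all genes. In such sorted bulk samples, fewer cells of a type and less RNA per cell cannot be told apart, and the scale of the score is not named.

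By position, 34 of 117 solitary genes (29.1%) were higher in neurons than in PP, near the 29.8% of all genes. Of the paired genes 16 of 28 (57.1%) were higher, and of the clustered genes 49 of 124 (39.5%). Lower scores were found at 14 solitary (12%), 1 paired (3.57%), and 12 clustered genes (9.68%), beside 31.2% of all genes. The median differences over solitary, paired, and clustered genes were 0.24, 0.66, and 0.43, against -0.01 over all genes. Clustered genes, which had few peaks with higher 5hmC in neurons, thus had a median score difference above that of solitary genes. Their median score was lower, at 785 in PP and 1057 in neurons against 1935 and 2165 for solitary genes.

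The gene furthest from equality, among those with a mean score of at least 50, was Zfp804a, with 3.2, 23.0, and 985 in PP, DP, and neurons. Zfp9 followed with 94.1, 241, and 1340, then Zfp558 with 361, 646, and 2370, Zfp238, and Zfp663 with 178, 335, and 935. In all 5 DP stood between PP and neurons. In the other direction Zfp36l2 led with 2187, 1485, and 235, before Zfp395 (2447, 1456, and 457), Zfp365 (274, 140, and 53.5), Zfp607 (340, 236, and 67.3), and Zfp820 (429, 306, and 130). Zfp607 and Zfp820 are clustered, and neither had a 5hmC peak. Zfp9 and Zfp663 also had only 5mC peaks, 3 and 7, and Zfp558 only 2 5hmC peaks.

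**Figure D5:**
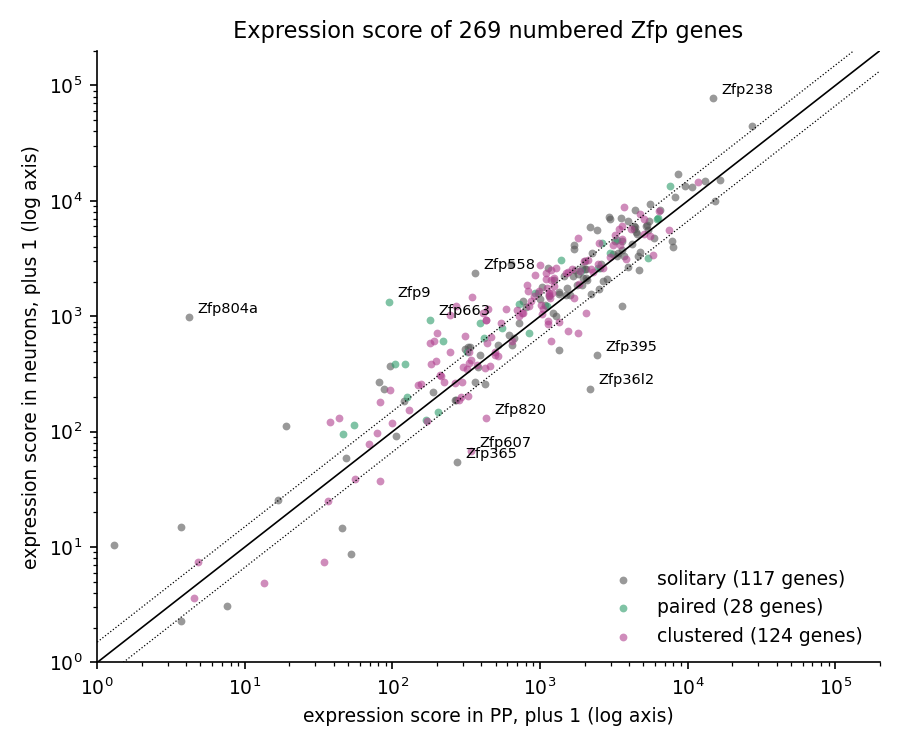
Expression score plus 1 in neurons against PP for the 269 numbered Zfp genes, both axes logarithmic, with equality as a solid line and 1.5-fold as dotted lines. The 5 genes named in each direction are those with the largest differences at a mean score of at least 50, and 99 genes lie above the upper dotted line and 27 below the lower one.

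The marks were then described by the direction of the score. The 82 genes with 5mC peaks and a score higher in neurons had lower 5mC at 33 of 256 peaks (12.9%, interval 9.04 to 17.6), the 24 genes with a lower score at 11 of 88 (12.5%, interval 6.41 to 21.3), and the 119 genes within 1.5-fold at 41 of 349 (11.7%), beside 16.3% of all peaks. 5hmC was higher at 37 of 229 peaks of genes with a higher score (16.2%), at 16 of 75 of those with a lower score (21.3%), and at 36 of 273 of those within 1.5-fold (13.2%), beside 20.2% of all peaks. Lower 5hmC was found at 32 (14%), 6 (8%), and 26 (9.52%) of these peaks, beside 10.8% of all peaks. These shares were not tested.

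Numbered genes of other zinc finger series were described in the same way. The sets are not fully separate by current names: Zfp238, Zfp161, and Zfp295 are now Zbtb18, Zbtb14, and Zbtb21. Likewise, Zfp167 and Zfp498 are now Zkscan7 and Zscan25. Under these older symbols, their peaks were counted with the Zfp genes. The numbered Zbtb genes, which join zinc fingers to a BTB dimerisation domain, had 129 5mC and 86 5hmC peaks, and from PP to neurons 14.7% had lower 5mC and 25.6% higher 5hmC. The Zscan and Zkscan genes, which join fingers to a SCAN domain, had 58 and 46 peaks in 13 genes each, with 25.9% and 17.4%. For the Zfp genes the shares were 12.3% and 15.4%, and over all peaks 16.3% and 20.2%. The peaks of Zbtb genes lay inside the gene at 55.8% (5mC) and 57.0% (5hmC), those of Zscan and Zkscan genes at 25.9% and 23.9%. The share of 5hmC peaks within 2 kb of the TSS was 9.3% for Zbtb, 8.7% for Zscan and Zkscan, and 9.36% for Zfp genes. These differences were not tested.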

How the data were processed

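5mC and 5hmC were measured by MeDIP and hMeDIP in sorted PP, DP, and neurons. Per the labels, reads were processed with bcl2fastq 1.8.4, BWA 0.7.8-r455 (mm10), SICER 1.1, DiffBind, HOMER 4.7, and deepTools 2.2. The authors merged peaks found in all replicates of a cell type, left out those overlapping repeats, and deposited a log2 level per peak and cell type, normalised by TMM and averaged over replicates. The deposited expression score came from earlier RNA-seq of the authors, and its scale is not named. Distances to the TSS are in bp, as the authors gave them. The tables hold no counts, no replicate levels, and no input signal, so depth per sample cannot be read from them and no test or p-value is given. The paper reports biological replicates and a range of reads per sample. Columns with the authors' own fold changes and p-values for marks and expression were not used.

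Here, differences of levels and of log2 (score plus 1) were calculated in scripts (scipy 1.17.1, numpy 2.4.6, pandas 2.3.3 under python 3.11.15) and drawn with matplotlib 3.10.9. The counting of peaks past 1.5-fold was tested on simulated data. A score was taken once per gene, and 1 Zfp gene had rows with differing scores. Named were listed genes of known role, the 3 peaks with the largest difference per mark, direction, and pair of cell types with a level of at least 4, the 3 highest peaks and 5 genes with most peaks per mark, and the 5 genes with the largest score differences per direction at a mean score of at least 50. Peaks of clustered genes and overlapping pairs beyond these were chosen after their values were seen. The members, lists, and comparisons were chosen with earlier results of these data known. Alternatives covered the fold minimum, centring, level minimum, repeated rows, distance, sex chromosomes, pseudocount, overlap rule, TSS window, and the gap of runs. A planned split by protein domains was not made, since no protein sequences were at hand.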

Additional observations from a re-analysis of the deposited data

How the results depend on the processing

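No paired analysis was possible because the tables hold a single mean level per mark and cell type. Of 144 recomputed values, 111 kept their direction and stayed within the limit set for a move (1.5 times for a count, the interval of the value otherwise), among them all those for autosomes, peaks within 100 kb, peaks reaching a level of 4, and other overlap rules. With a fold minimum of 2, lower and higher 5mC were found at 7 and 3 Zfp peaks between PP and DP, 25 and 2 between DP and neurons, and 26 and 1 between PP and neurons, and lower and higher 5hmC at 1 and 19, 9 and 31, and 8 and 54. Centred on the median of all peaks, lower and higher 5mC were found at 54 and 38 peaks from DP to neurons and 49 and 25 from PP to neurons, the median 5mC differences reversed to 0.0258 and 0.0509, and the median 5hmC difference from PP to neurons was -0.0361. Centred shares of lower 5mC were 9.07% for solitary and 3.70% for clustered genes. With 1 peak per gene, the median 5mC differences were 0.0587 for PP to DP and -0.0854 from PP to neurons, and the median 5hmC differences -0.13 from DP to neurons and -0.18 from PP to neurons. The share of 5mC peaks inside the gene was then 48.0%. Lower 5mC was found at 6% of solitary and 5.83% of clustered genes, which cannot decide whether the classes differ, since the peak kept was the one of highest mean level. Higher 5hmC was found at 9.89% of solitary and 2.53% of clustered genes. With 1 peak per gene, the shares over all genes were not computed. TSS windows of 5 and 1 kb held 18.9% and 2.31% of 5mC peaks and 19.4% and 4.68% of 5hmC peaks. The alternatives for solitary and clustered genes were chosen after seeing the data. Apart from the fewer peaks or wider windows that these settings make by construction, the cause was not tested. Without replicate levels, a difference past 1.5-fold may lie within the spread between replicates.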

Other observations

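The tandem runs of Zfp genes differed in their values. The largest, on chromosome 13 (67038594 to 67827000, GRCm38.p6), holds 24 numbered Zfp genes, of which 13 had a peak, and its 15 5mC peaks included none that was at least 1.5-fold lower in neurons than in PP and 1 that was higher, at Zfp456. The median expression score of its members was low, at 178 in PP and 257 in neurons. A run of 15 genes on chromosome 7 (29768552 to 30169775), from Zfp84 to Zfp146, had 7 of its 32 5mC peaks lower in neurons (21.9%, all peaks 16.3%), of which 4 were near Zfp14, a gene with a score of 191 in PP and 610 in neurons. Its 12 5hmC peaks included 1 lower and none higher, and 6 of its 11 member genes had a score at least 1.5-fold higher in neurons. In the run from Zfp180 to Zfp94 on the same chromosome, with 9 members, none of 14 5mC peaks was past 1.5-fold between PP and neurons.

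On chromosome 17 the run from Zfp677 to Zfp943 had 7 members with 6 peaks of each mark. From PP to neurons none was past 1.5-fold for 5mC and 2 were lower for 5hmC. Its median scores were 429 in PP and 416 in neurons. Among the 15 runs with at least 4 members, the run from Zfp560 to Zfp846 on chromosome 9 had the highest median neuron score, 3102. None of its 5 5mC peaks was past 1.5-fold between PP and neurons. In 13 of these 15 runs the median 5hmC difference from PP to neurons was below 0, as was the median over all peaks, -0.08. These runs were described after their values were seen and hold few peaks each.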
